A study of Mus musculus with 2 samples.

Results

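Transcripts of the TGF-beta pathway were examined in regenerating mouse liver, over 10 genes that encode its ligands (*Tgfb1*, *Tgfb2*, *Tgfb3*), its cell surface receptors (*Tgfbr1*, *Tgfbr2*, *Tgfbr3*) and its Smad proteins (*Smad2*, *Smad3*, *Smad4*, *Smad7*). They were taken by gene symbol from the 34745 genes that the authors listed, and each symbol matched 1 listed gene. The liver of male mice aged 8 to 10 weeks, either miR-182-5p KO or wild type (WT), was profiled by poly(A) RNA-seq after 2/3 partial hepatectomy (PH), the removal of 70% of the organ, which both genotypes had undergone. The day of sampling, day 3 after surgery, and the zygosity come from the study's methods and text, by which the KO mice carried the deletion on a single allele, so that their miR-182-5p is reduced and not absent. Each genotype is 1 library, and how many mice went into a library is not given in the sources used here.

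TGF-beta ligands are secreted in a latent complex and, once released, bind the type II receptor TGFBR2, which recruits and phosphorylates the type I receptor TGFBR1. TGFBR1 phosphorylates SMAD2 and SMAD3, which join SMAD4 and enter the nucleus to regulate transcription, and SMAD7 feeds back on the receptor. In the liver the pathway is known for halting hepatocyte division late in regeneration and for driving stellate cells to produce matrix.

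The main difference lay in the signaling receptors. *Tgfbr1* had 9 counts in KO (the KO library) and 193 in WT, and *Tgfbr2* had 80 and 252. Relative to the other genes of each library, *Tgfbr1* was 13.7-fold lower in KO (95% counting interval 7.34 to 31.6) and *Tgfbr2* 2.08-fold lower (1.62 to 2.72). No ligand and no Smad was at least 2-fold higher or lower with an interval that left out equality.

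Sequence is shown first for miR-182-5p, the microRNA that the KO mice lack in part, and for its seed matches in the receptors, because a microRNA pairs with mRNA through the seed. The mature form in RefSeq (GRCm38.p6) lies at chr6:30165962-30165986 on the minus strand, and is printed 5′ to 3′ with the seed, bases 2 to 8, in capitals.
miR-182-5p: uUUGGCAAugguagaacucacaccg
The seed matches searched were TTGCCAAA (8mer), TTGCCAA (7mer-m8) and TGCCAAA (7mer-A1), on the transcribed strand of the longest annotated 3′ UTR in GENCODE M21, with each position counted once under the longest match. Of the 3 receptors, *Tgfbr1* and *Tgfbr3* hold a match and *Tgfbr2* holds none. The matches are in capitals below, with 11 flanking bases on either side, and the number is the position in the UTR where each match begins.
Tgfbr1, 7mer-m8 at 2471: tgttgtttctaTTGCCAAtcaaagacttc
Tgfbr3, 8mer at 568: gggcctgtcacTTGCCAAAgtaacattcct
Tgfbr3, 7mer-m8 at 1985: gagatactacaTTGCCAAggactttataa
Of the 10 genes, 4 hold at least 1 match, the others being *Smad2* (1 7mer-m8) and *Smad7* (1 7mer-A1). Among 12497 genes with an annotated 3′ UTR, 19.5% hold a match and 4.99% an 8mer. The share follows length: among the fifth of genes with the longest 3′ UTRs, to which all 3 receptors belong, 45.5% hold a match and 12.2% an 8mer. The log2 fold changes (KO over WT) of the receptors were −3.77 for *Tgfbr1*, −1.06 for *Tgfbr2* and −0.29 for *Tgfbr3*. Whether the matches bear on these values was not tested. A seed match is a stretch of letters and was not tested here as a site of binding.

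The KO library held 13247497 counts in all and the WT library 13163348. *Mir182* itself was not listed, so its level could not check the labels. The 13 mitochondrially encoded genes took 51.7% of the counts in KO (exact 95% interval 51.6% to 51.7%) and 31.0% in WT (30.9% to 31.0%), which leaves fewer reads for all other genes in KO. Values were therefore scaled by TMM, which sets the bulk of genes equal. The median log2 fold change of the 13561 genes tested, those whose counts in the 2 libraries together reached 10, was 0.00 with TMM and −0.60 when the libraries were scaled by their total counts instead. A gene passed the criterion for higher or lower when its scaled counts differed at least 2-fold and its exact 95% counting interval left out equality. With 1 library per genotype there is no replicate check and no test of the genotype, and the intervals and the floor of 3 counts cover counting error only. In bulk liver, fewer cells of a type and less RNA per cell cannot be told apart.

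**Figure D1:**
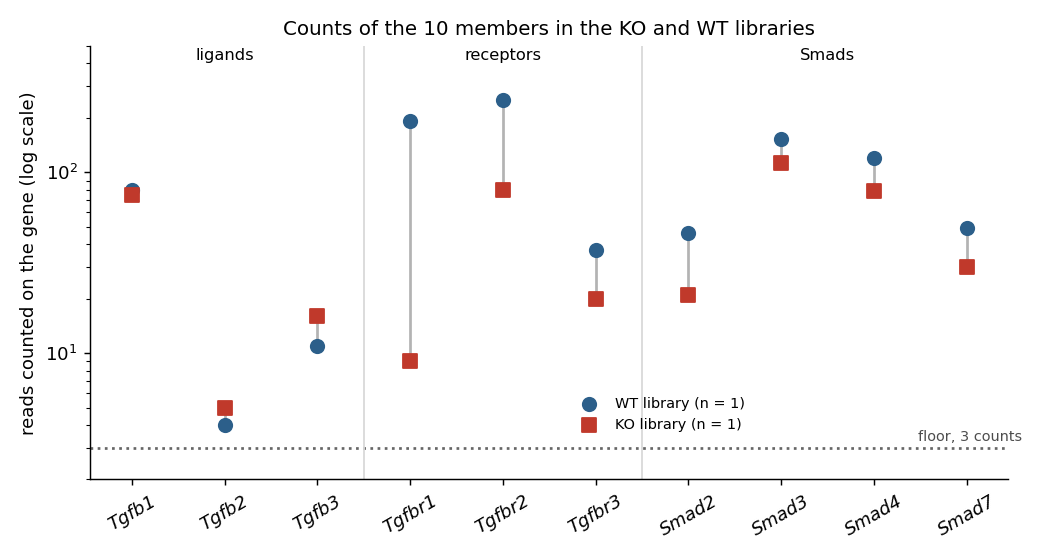
Reads counted on each of the 10 genes in KO (squares) and the WT library (circles), on a log axis, with 1 library per genotype and no scaling. Tgfbr1 has the widest gap, 9 against 193 counts, while Tgfb1 has 75 and 80.

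By the criterion, 2 of the 9 genes that reached 10 counts fell and none rose. Over all genes tested, 8.64% were lower and 8.27% higher. The median log2 fold change of the 9 was −0.11, against 0.00 for all genes, with 3 values above 0 and 6 below. The counting interval lay below 0 for 2 of them and above 0 for 1, beside 26.2% and 25.8% of all genes, and it held 0 for the other 6. Scaled by total counts, 3 of the 9 were lower (*Tgfbr1*, *Tgfbr2* and *Smad2*), where 25.1% of all genes were, and their median was −0.71.

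**Figure D2:**
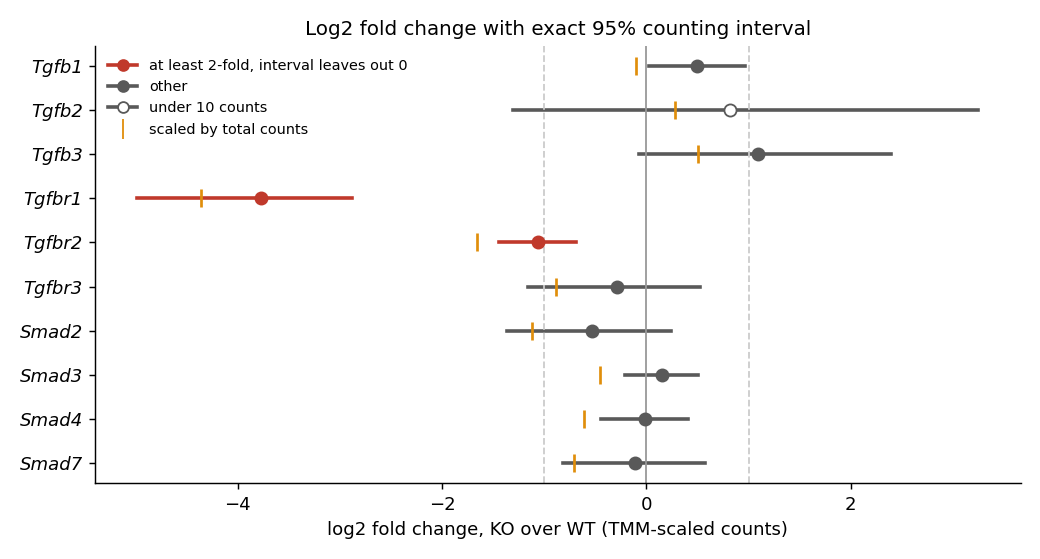
Log2 fold change, KO over WT, of each gene with TMM scaling (points) and its exact 95% counting interval (bars), with the value under total-count scaling as a vertical tick. Only Tgfbr1 and Tgfbr2, in red, lie beyond a 2-fold difference with an interval that leaves out 0, and total-count scaling moves each gene to the left by a similar amount.

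Of the receptors, *Tgfbr1* (ENSMUSG00000007613), the type I receptor kinase, spans chr4:47353222-47414931 on the plus strand of GRCm38. Its 9 and 193 counts gave scaled levels of 0.837 CPM in KO and 11.9 CPM in WT, with a log2 fold change of −3.77 (95% counting interval −4.98 to −2.88). The KO value stands above the floor of 3 counts, so the gene was detected in both libraries. Scaled by total counts the log2 fold change was −4.36. Among the 4503 genes with 101 to 404 counts over both libraries, within 2-fold of the 202 of *Tgfbr1*, 16 (0.355%) had a log2 fold change as low or lower, and 7.48% passed the criterion for lower. In the authors' FPKM, a level per transcript length, *Tgfbr1* stood at 1.61 in WT, above 53.2% of the detected genes, and at 0.0744 in KO, above 9.43%. No listed gene overlaps it, and none of the 51-base words of its longest transcript occurs in another gene. Its neighbours did not share the difference: *Col15a1*, which lies before it and encodes a collagen, had 46 and 54 counts (0.36, interval −0.24 to 0.96), and *Alg2*, which lies after it and encodes a glycosyltransferase, had 29 and 28 (0.63, −0.16 to 1.45).

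*Tgfbr2* (ENSMUSG00000032440; chr9:116087698-116175363, minus strand), the ligand-binding type II receptor kinase, had 7.44 CPM in KO and 15.5 in WT. Its log2 fold change was −1.06 (−1.44 to −0.69), so the point value lies close to the 2-fold line and the interval reaches across it. It no longer passed with edgeR's exact test when the coefficient of variation between animals was assumed to be 0.2 (adjusted p = 0.167) or 0.4 (adjusted p = 1). It was −1.66 with total counts. Of the 4763 genes with 166 to 664 counts, 262 (5.5%) were as low or lower, and 6.32% passed the criterion. *Tgfbr2* was the most abundant of the 10 genes by FPKM in WT, at 4.0, and stood at 1.26 in KO. The nearest tested genes, *Stt3b* and *Rbms3*, had log2 fold changes of −0.22 (−0.39 to −0.05) and 0.43 (−0.56 to 1.43).

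*Tgfbr3* (ENSMUSG00000029287; chr5:107106570-107289629, minus strand) encodes betaglycan, the co-receptor that presents ligand to the type II receptor. It had 20 counts in KO and 37 in WT, a log2 fold change of −0.29 (−1.16 to 0.53). The interval holds 0 and also a difference of 2-fold lower, so a change of that size was not excluded at this depth. Summed over the 3 receptors, the libraries held 109 and 482 counts, for a log2 fold change of −1.55 (−1.87 to −1.25).

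**Figure D3:**
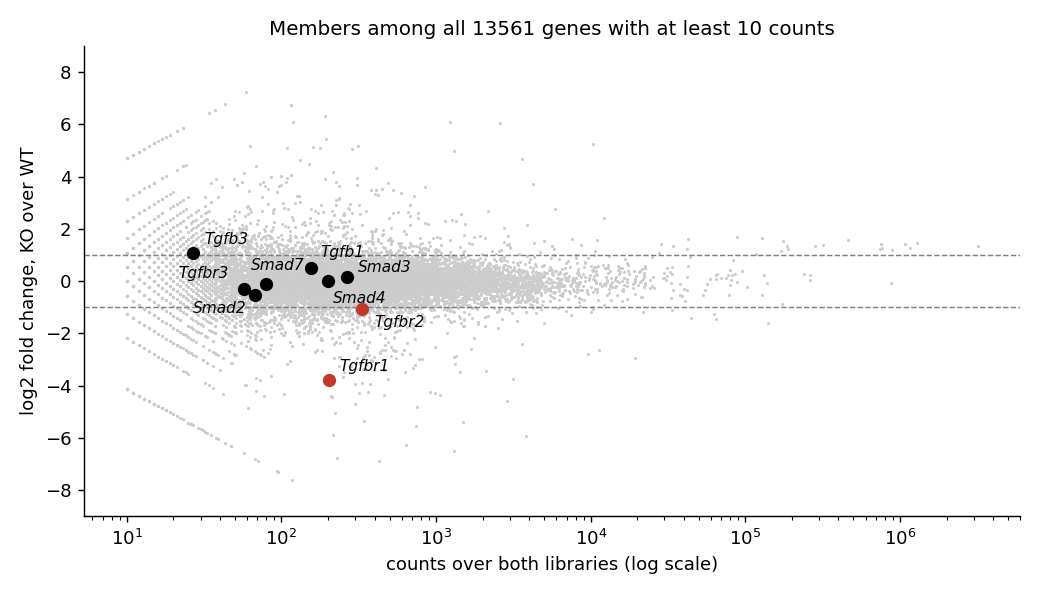
Log2 fold change, KO over WT, against the counts over both libraries (log axis) for the 13561 genes tested (grey), with 9 of the 10 genes named and dashed lines at 2-fold. Tgfbr1, at 202 counts and −3.77, lies below all but a few genes of like count, and the ligands and Smads lie within the bulk of genes.

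The starts of the 2 receptor genes that fell are shown for their base composition and for the letters bound by known factors. RefSeq's promoter table (GRCm38.p6) gives 300 bases around each start, of which the 250 before the start are printed, 5′ to 3′ on the gene's strand. Capitals mark GGGCGG, the GC box, and CAGAC, the Smad box, each searched on both strands (as CCGCCC and GTCTG too).
Tgfbr1, chr4:47352972-47353221, plus strand: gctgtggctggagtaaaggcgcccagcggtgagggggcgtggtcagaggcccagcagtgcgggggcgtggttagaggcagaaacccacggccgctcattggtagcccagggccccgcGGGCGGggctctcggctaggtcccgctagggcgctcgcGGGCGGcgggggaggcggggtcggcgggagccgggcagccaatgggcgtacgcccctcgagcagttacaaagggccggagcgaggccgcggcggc
Tgfbr2, chr9:116175364-116175613, minus strand: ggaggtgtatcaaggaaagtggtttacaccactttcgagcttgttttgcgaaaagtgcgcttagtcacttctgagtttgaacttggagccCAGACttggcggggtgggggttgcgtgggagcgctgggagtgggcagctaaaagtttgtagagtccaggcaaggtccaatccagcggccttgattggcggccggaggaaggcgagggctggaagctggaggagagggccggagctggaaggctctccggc
Over its 300 bases the printed *Tgfbr1* window, that of the first of 2 starts in the table, holds 2 GC boxes, no Smad box and 74.7% G and C. The *Tgfbr2* window holds no GC box, 1 Smad box and 59% G and C. Of all 32851 promoters in the table, 35.7% hold a GC box and 49.6% a Smad box, and their median G and C content is 52.7%. The table also gives a second *Tgfbr1* start, whose 300 bases hold no GC box, 1 Smad box and 52% G and C, as many of each motif as the *Tgfbr2* window. Which start the reads came from was not tested, and a match is a description of letters only.

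Because scaling cancels in a ratio of 2 genes within a library, the balance between genes was also compared. In the WT library there were 0.766 counts on *Tgfbr1* for each count on *Tgfbr2*, and in KO 0.113. The log2 odds ratio was −2.76 (exact 95% interval −3.98 to −1.72). Against *Tgfbr3* the fall of *Tgfbr1* was −3.51 (−4.95 to −2.19), and that of *Tgfbr2* was −0.77 (−1.68 to 0.18), whose interval holds 0. *Tgfbr1* thus made up 40% of the receptor counts in WT (35.6% to 44.6%) and 8.26% in KO (3.85% to 15.1%). *Tgfbr2* made up 52.3% (47.7% to 56.8%) and 73.4% (64.1% to 81.4%). The type I and type II receptors were therefore lower by unequal amounts, whichever scaling is used.

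The same ratio was taken against the receptors of activins and BMPs, the sister branches of the family, a set chosen after the values were seen. *Tgfbr1* was lower relative to each of 4 type I receptors, with log2 odds ratios of −2.99 against *Acvr1* (−4.23 to −1.91), −3.18 against *Acvrl1* (−4.67 to −1.77), −4.08 against *Bmpr1a* (−5.26 to −3.08) and −4.31 against *Acvr1b* (−5.54 to −3.25). *Tgfbr2* was lower relative to *Bmpr2* (−1.65, −2.17 to −1.14) and *Acvr2a* (−0.79, −1.29 to −0.30), and its interval against *Acvr2b* held 0 (−0.33, −1.42 to 0.84). None of the 7 activin and BMP receptors that were tested passed the criterion, and their median log2 fold change was −0.27. With total counts 3 of them were lower (*Acvr1*, *Acvrl1* and *Acvr2b*), where 25.1% of all genes were, and the median was −0.87. The most abundant was *Bmpr1a*, a BMP type I receptor, with 213 and 270 counts (0.25, −0.02 to 0.51).

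**Figure D4:**
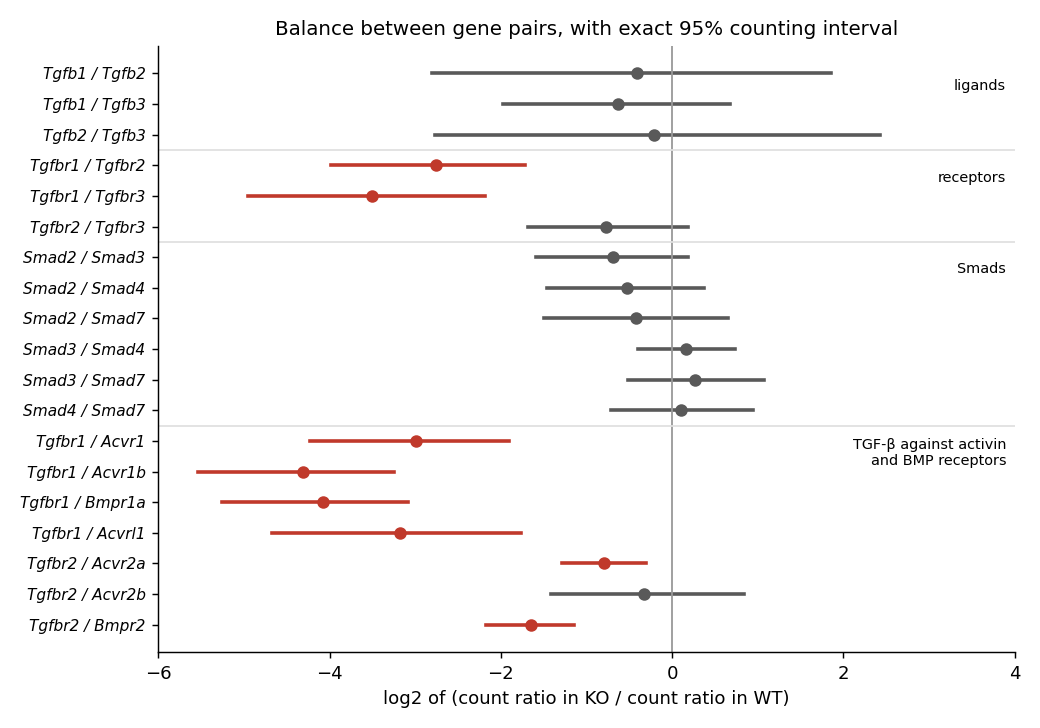
Log2 of the count ratio of 2 genes in KO over that in WT, with exact 95% intervals; red marks intervals that leave out 0. Of the pairs within a role, 2 of 3 among the receptors, none of 3 among the ligands and none of 6 among the Smads leave out 0. All 4 pairs of Tgfbr1 with another type I receptor lie below 0, which restates the fall of Tgfbr1 itself.

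Among the ligands, *Tgfb1* (ENSMUSG00000002603; chr7:25687002-25705077, plus strand), the main isoform of the liver, made up most of the counts. It had 75 counts in KO and 80 in WT, which with TMM is a log2 fold change of 0.50 (0.03 to 0.97). The interval lies above 0, short of 2-fold, and the direction depends on the scaling, since total counts give −0.10 (−0.58 to 0.37) and the authors' FPKM are 0.992 and 1.06. *Tgfb3* (ENSMUSG00000021253; chr12:86056744-86079041, minus strand) had 16 and 11 counts, for a log2 fold change of 1.09 (−0.07 to 2.39), over 2-fold but with an interval that holds 0. Its reads are also the least certain in origin: it overlaps *Ttll5* on the opposite strand, with 29 and 73 counts, the strand used in counting is not given in the sources used here, and 8.73% of its 51-base words occur in another gene. *Tgfb2* (ENSMUSG00000039239; chr1:186622792-186705989, minus strand) had 5 and 4 counts, which is under the minimum and was not tested.

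The ligands together had 96 counts in KO and 95 in WT, for a log2 fold change of 0.60 (0.18 to 1.03) with TMM and 0.01 (−0.42 to 0.43) with total counts. *Tgfb1* was 78.1% of them in KO (68.5% to 85.9%) and 84.2% in WT (75.3% to 90.9%). None of the 3 ligand pairs had a balance whose interval left out 0, so a shift between isoforms was not detectable at this depth. The contrast between roles is in the sums: ligand counts were nearly equal in the libraries before scaling, and receptor counts were 109 against 482.

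Of the Smads, *Smad3* (ENSMUSG00000032402; chr9:63646767-63757994, minus strand), a receptor-regulated Smad, had the most counts, 112 in KO and 152 in WT. Its log2 fold change was 0.15 (−0.21 to 0.51) with TMM and −0.45 with total counts. *Smad4* (ENSMUSG00000024515; chr18:73639009-73703780, minus strand), the common partner, had 79 and 120 counts, for a log2 fold change of −0.01 (−0.44 to 0.41). For both genes the interval with TMM excludes a 2-fold difference in either direction, as far as counting error goes.

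*Smad2* (ENSMUSG00000024563; chr18:76241580-76305731, plus strand), the other receptor-regulated Smad of this branch, had 21 and 46 counts and a log2 fold change of −0.53 (−1.36 to 0.24). It passed the criterion for lower only with total counts, at −1.12. *Smad7* (ENSMUSG00000025880; chr18:75367529-75395935, plus strand), the inhibitory Smad and itself a known target of the pathway, had 30 and 49 counts and a log2 fold change of −0.11 (−0.82 to 0.57). The 4 Smads summed to 242 and 367 counts, for a log2 fold change of −0.01 (−0.25 to 0.23) with TMM and −0.61 (−0.85 to −0.37) with total counts. Under total counts *Smad4* alone was at −0.61 and *Smad7* at −0.71. *Smad3* was 46.3% of these counts in KO (39.9% to 52.8%) and 41.4% in WT (36.3% to 46.6%), and none of the 6 Smad pairs had a balance whose interval left out 0.

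By level, the 10 genes lay between 0.0334 and 4.0 FPKM. In WT they stood from above 3.83% of the detected genes (*Tgfb2*) to above 71.6% (*Tgfbr2*). In the WT library the order by FPKM was *Tgfbr2*, *Smad3*, *Tgfbr1*, *Smad4*, *Tgfb1*, *Smad2*, *Smad7*, *Tgfbr3*, *Tgfb3* and *Tgfb2*. In the KO library it was *Smad3*, *Tgfbr2*, *Smad4*, *Tgfb1*, *Tgfb3*, *Smad2*, *Smad7*, *Tgfbr3*, *Tgfbr1* and *Tgfb2*. *Tgfbr1* moved from place 3 to place 9, and it keeps both places when counts are divided by the exonic length in GENCODE M21 in place of the authors' length. The authors' lengths, inferred from counts and FPKM, were 0.58 (*Tgfbr2*) to 1.71 (*Smad7*) times the M21 lengths, so several other places in the order depend on the annotation. *Smad4* comes first in both libraries by M21 length. With 1 library per genotype, the spread between samples that would separate neighbours in this order was not measured.

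The wider pathway was read from lists. With TMM, 8.27% of all genes tested were higher and 8.64% lower. Of 12 tested genes that store and activate latent TGF-beta, 3 rose and 1 fell, with a median log2 fold change of 0.02. *Itgav*, a subunit of integrins that release active TGF-beta from its latent complex, had 110 counts in KO and 17 in WT (3.24, 2.54 to 4.12), the opposite direction to the receptors. The integrin beta subunits on the list were too sparse to test, *Itgb8* with 1 and 3 counts and *Itgb6* with 0 in both, named after their values were seen. *Thbs1*, a matrix protein that also activates latent TGF-beta, had 42 and 18 counts (1.78, 0.99 to 2.70), and *Ltbp2*, a latent TGF-beta binding protein, had 35 and 21 (1.30, 0.51 to 2.18). *Mmp2*, a matrix protease, had 12 and 39 (−1.08, −2.18 to −0.15). The more abundant members of the list, the protease *Furin* that cleaves the precursor (−0.05), *Mmp14* (−0.71) and *Ltbp4* (0.96), did not pass. With total counts 2 genes were higher (*Itgav* and *Thbs1*) and 3 lower, where 25.1% of all genes were lower. *Ltbp2* was then at 0.71 and did not pass.

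None of 5 extracellular proteins that bind TGF-beta and none of 17 Smad adaptors, co-repressors and ubiquitin ligases passed, with medians of −0.11 and 0.06. The most abundant were, of the former, the protease inhibitor *Pzp* (−0.11), the proteoglycan *Dcn* (−0.52) and the co-receptor *Eng* (0.20), and of the latter *Nedd4l*, a ubiquitin ligase (−0.07), *Ppm1a*, a phosphatase (−0.05), and *Usp15*, a deubiquitinase (0.04). Of the 4 other Smads, *Smad9*, a BMP Smad, rose with 64 and 37 counts (1.37, 0.78 to 2.01), while *Smad1* stood at 0.26 and *Smad6* at −0.40. Of 6 activin and follistatin genes, 2 rose: *Inhbe*, which encodes the activin E subunit made by hepatocytes, had 248 and 157 counts (1.25, 0.96 to 1.55), and *Inha*, named after its value was seen, had 18 and 9 (1.53, 0.36 to 2.93). With total counts neither they nor *Smad9* passed, and 2 other genes of the activin list were lower. With total counts 2 of the 5 binding proteins, 3 of the 17 adaptors, co-repressors and ubiquitin ligases and 2 of the 7 genes of the BMP ligand list were lower, and none was higher. Under that scaling 25.1% of all genes were lower, and with TMM 8.64% were lower and 8.27% higher. With TMM none of the 7 genes of the BMP ligand list passed, with a median of −0.24. The most abundant were *Gdf15*, which is on the list though not itself a BMP, *Bmp2* and *Gdf2*, at −0.50, 0.10 and −0.36.

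Genes known to respond to TGF-beta moved in both directions. Of 23 tested, 4 rose and 5 fell, beside 8.27% and 8.64% of all genes, and the median of the 23 was −0.30. The lower ones were *Bhlhe40*, a transcription repressor, with 43 counts in KO and 328 in WT (−2.33, −2.83 to −1.88), *Cdkn1a*, the cell cycle inhibitor p21, with 228 and 1002 (−1.54, −1.76 to −1.33), *Snai2*, with 20 and 76 (−1.32), and, named after their values were seen, *Col1a1*, with 102 and 312 (−1.02), and *Acta2*, with 25 and 77 (−1.02), the collagen and actin of activated stellate cells. Besides *Thbs1*, the higher ones were *Nox4*, with 227 and 160 counts (1.09, 0.80 to 1.40), *Lox*, with 18 and 8 (1.69, 0.49 to 3.17), and *Timp1*, with 12 and 3 (2.38, 0.70 to 5.06), all 3 named after their values were seen. The higher ones other than *Nox4* thus rest on few counts. *Lox* and *Timp1* fall among the genes with 14 to 54 counts over both libraries, of which 17.8% passed the criterion for higher. *Nox4* depends on the scaling: with total counts it was at 0.49 and *Lox* at 1.11, and neither passed. Of the genes past the criterion in either direction, only *Bhlhe40* and *Cdkn1a* had an interval wholly beyond 2-fold. Those of *Col1a1* (−1.36 to −0.69) and *Acta2* (−1.74 to −0.36) reached across the 2-fold line. The most abundant of the list, *Fn1*, was at −0.22 (−0.27 to −0.17). With total counts 2 genes of the list were higher (*Thbs1* and *Timp1*) and 11 lower, where 25.1% of all genes were lower. Of 6 BMP response genes only *Id1* passed, with 45 and 142 counts (−1.06, −1.58 to −0.57), and *Hamp*, the hepatic iron hormone, was at −0.24.

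The authors' annotation places 82 genes in KEGG's TGF-beta signaling pathway, of which 66 were tested, 5 rose and 6 fell, with a median of 0.01. With total counts 2 were higher and 20 lower, with a median of −0.59, where 25.1% of all genes were lower, with a median of −0.60. Of the 58 that are not among the 10 genes, 5 rose and 4 fell. The higher ones were *Thbs1*, *Smad9*, *Inhbe*, the BMP antagonist *Chrd* with 227 and 142 counts (1.27, 0.96 to 1.58), and *Tnf*, with 17 counts in KO and 0 in WT, at least 8.54-fold higher against a floor of 3 counts per library. The lower ones were *Id1*, *Rbl1*, a retinoblastoma-family protein, with 22 and 108 counts (−1.69, −2.44 to −1.03), and *Nodal* and *Id4*, with 0 counts in KO and 22 and 10 in WT, at least 4.86-fold and 2.21-fold lower. *Chrd*, *Tnf*, *Nodal* and *Id4* were named after their values were seen. These shares, with 11 of 66 past the criterion, are close to those of all genes, and *Tgfbr1* had the lowest log2 fold change of those of the 66 that were detected in both libraries.

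**Figure D5:**
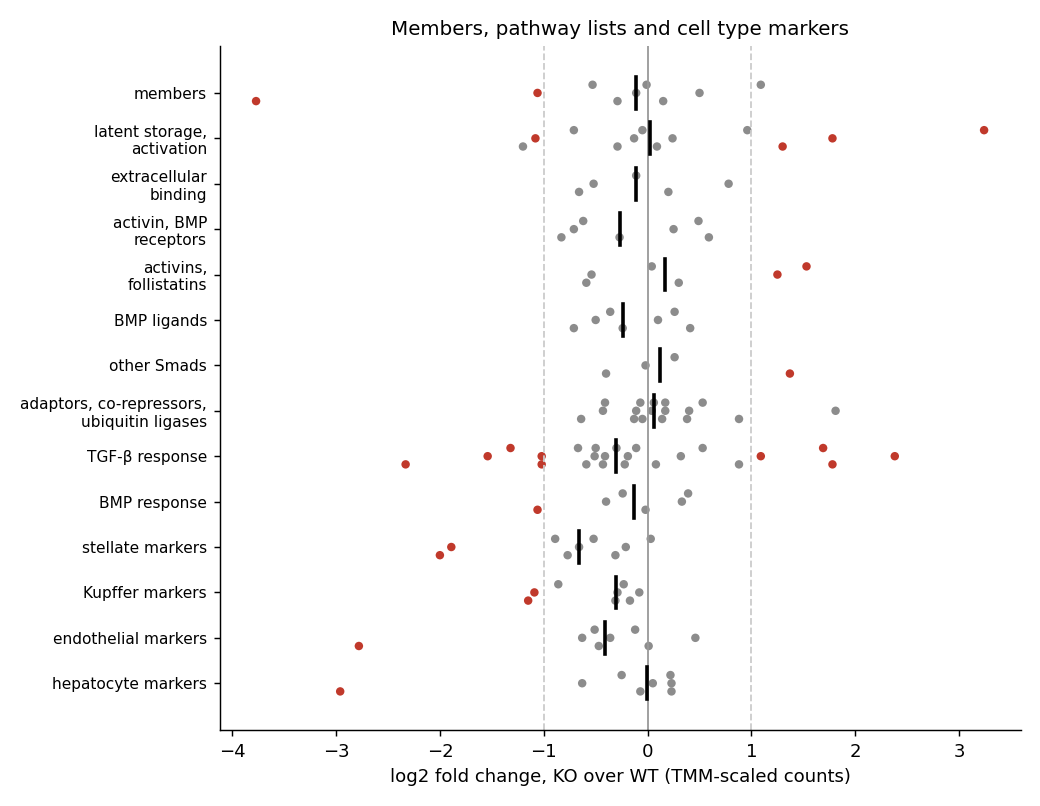
Log2 fold change, KO over WT, of each tested gene of the 10 members, of 9 lists of the pathway (the KEGG list is not drawn) and of 4 lists of cell type markers; black bars are medians, red points passed the criterion and dashed lines mark 2-fold. Of the points drawn, Tgfbr1 is the lowest, Itgav of the latent storage and activation list the highest at 3.24, and 8 of 9 stellate cell markers lie below 0.

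Markers of the cells that carry these receptors were read beside them. Hepatocyte markers were abundant in both libraries of this liver tissue, with *Alb* at 339876 and 536544 counts and a summed level of the 8 markers of 52100 CPM in KO and 52400 in WT, and 1 of them, *Apob*, the apolipoprotein of very low density lipoprotein, was lower (1517 and 17808 counts, −2.96). Of 9 stellate cell markers, 8 were below 0 and 2 passed, *Hgf* with 5 and 32 counts (−2.0) and *Ngfr*, named after its value was seen, with 4 and 24 (−1.89). Their median was −0.66 and their summed level 92.5 CPM in KO and 134 in WT. For *Hgf*, the study's own qRT-PCR of KO and WT livers on day 3 after PH found no significant difference. All 8 Kupffer cell and macrophage markers were below 0, with 2 past the criterion (*Marco* at −1.09 and *Adgre1* at −1.15), a median of −0.30 and summed levels of 135 and 179 CPM. Of 8 endothelial markers 1 passed, *Lyve1* with 4 and 45 counts (−2.78), with a median of −0.42 and summed levels of 142 and 143 CPM. With total counts 6 of the stellate, 3 of the Kupffer and 4 of the endothelial markers were lower, with medians of −1.26, −0.90 and −1.01. Of all genes 25.1% were lower under that scaling, with a median of −0.60, and 8.64% were lower with TMM. No marker of these 4 lists was at 0 in both libraries. The summed levels of stellate and Kupffer cell markers thus moved in the direction of *Tgfbr1* and *Tgfbr2*, and their part in the difference was not tested.

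The minor cell types were thinly covered. Of 4 cholangiocyte markers 2 rose, *Krt19* with 26 and 7 counts (2.39) and *Krt7*, named after its value was seen, with 15 and 6 (1.81), at summed levels of 11.4 and 9.68 CPM. *Sox9*, which had the most counts of this list, 69 and 129, was at −0.31 (−0.75 to 0.12). *Epcam*, with 11 and 15 counts, was at 0.14 (−1.12 to 1.37). The single lymphocyte marker that was tested, *Cd79a*, was higher (12 and 4 counts, 2.02), none of 3 neutrophil markers passed, with *Ly6g* at 0 in both libraries, and 2 of 4 platelet markers were lower, *Ppbp* and *Pf4*, each with 3 counts in KO, at −1.94 (−4.47 to −0.31) and −1.78 (−4.32 to −0.12), with *Gp1ba* at 0 in both. The platelet marker with the most counts, *Itga2b*, named after its value was seen, had 57 and 55 (0.64, 0.08 to 1.21). The TMM intervals of *Krt7* (0.47 to 3.57) and *Cd79a* (0.46 to 4.27) were wide. With total counts these 2 genes were at 1.25 and 1.47 and did not pass, while *Krt19*, *Ppbp* and *Pf4* still did. Of all genes, 8.27% were higher and 8.64% lower with TMM. Summed platelet levels were 6.14 CPM in KO and 6.29 in WT. Platelets are a known store of TGF-beta1 protein.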

How the data were processed

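RNA was sequenced by the study on Illumina HiSeq instruments from 1 KO and 1 WT liver library. The authors deposited raw counts per gene, without normalization, and FPKM, which they scaled by the total count. The submitters' processing notes name HISAT2 2.0.4, StringTie, edgeR and the build hg38, although the deposited table holds mouse Ensembl identifiers, 34344 of its 34745 being in GENCODE M21, with GRCm38 coordinates. The counting program and its strand setting are not given in the sources used here.

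Counts were scaled by TMM in edgeR 4.0.16 (R 4.3.3), with factors of 0.812 (KO) and 1.23 (WT). Log2 fold changes used a prior count of 0.5 and exact 95% Clopper-Pearson counting intervals, without adjustment for the number of genes. Balances are conditional odds ratios with exact intervals. Python 3.11.15 with numpy 2.4.6, pandas 2.3.3, scipy 1.17.1 and matplotlib 3.10.9 was used. On counts simulated for KO against WT, in which 200 of 13382 genes differed by 2 in log2, all 200 were recovered, with 80 false calls. Only counting error was simulated, and the differing genes were drawn from the better counted ones. These figures therefore do not cover variation between animals, smaller differences or genes with few counts.

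The 10 genes and all lists were chosen with earlier results of these data known. Genes named from a list are up to 4 past the criterion with the largest change and at least 30 counts, and up to 3 of the highest mean FPKM. An item of the TGF-beta response list is not reported here and was left out of its counts and median. Where a symbol stood on several rows, the row with the most counts was used. Alternatives were scaling by total counts with and without mitochondrial genes, by DESeq2 1.42.0 size factors and by the upper quartile, FPKM (pseudocount 0.1), 5 as the prior count, minimums of 1 and 50 counts, 2-fold alone, and edgeR's exact test with an assumed coefficient of variation of 0.1, 0.2 or 0.4. Promoters and the microRNA are from RefSeq; the promoter table matched *Tgfb1*, *Tgfb2*, *Tgfbr1*, *Tgfbr2* and *Smad3*.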

Additional observations from a re-analysis of the deposited data

How the results depend on the processing

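*Tgfbr1* was past the criterion for lower in all 12 alternatives, with log2 fold changes of −4.36 to −3.29, and *Tgfbr2* in 10 of 12, from −1.66 to −1.03. The minimums of 1 and 50 counts and 2-fold alone could not undo either call, and every alternative reuses the same libraries. With edgeR's exact test and an assumed coefficient of variation of 0.1, 0.2 or 0.4 between animals, the adjusted p was 4.97e-18, 1.39e-08 and 0.0255 for *Tgfbr1* and 0.00124, 0.167 and 1 for *Tgfbr2*, so that 1 of the 10 genes was lower at 0.2 and 1 at 0.4. With 2-fold alone, 1 gene (*Tgfb3*) was higher. The median log2 fold change of those of the 10 genes that were tested was −0.71 with total counts, −0.57 with FPKM, −0.20 with total counts without mitochondrial genes, −0.06 with a minimum of 1 count, when *Tgfb2* enters, and −0.20 with a minimum of 50 counts, when *Tgfb3* leaves. *Tgfb1* ranged from −0.10 to 0.50 and *Smad3* from −0.45 to 0.16, both below 0 with total counts and with FPKM. Over all genes, 1121 higher and 1171 lower became 489 and 3407 with total counts, 405 and 2934 with FPKM, 642 and 766 with a minimum of 50 counts, 488 and 444 at a coefficient of variation of 0.2 and 59 and 58 at 0.4. The direction of *Tgfbr1* and *Tgfbr2* did not reverse in any of these. No paired analysis was possible because there is only 1 library for KO and 1 for WT, and for the same reason no replicate could be left out. The depth limits the ligands, *Tgfbr3*, *Smad2* and *Smad7*, each under 160 counts over both libraries.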
